A study of Mus musculus with 2 samples.

Results

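The interferon-stimulated and nucleic acid sensing genes described here are a list of 51 symbols chosen by name, of which 49 were found among the 14694 genes of the deposited count table. Mx1 and Mx2 were not among its symbols. The RNA was labelled as coming from mouse lung fibroblasts, in a series on radiation-induced lung fibrosis. A single library carries the label IR and another the label NC, both numbered 4, and the labels give no genotype, strain, age, dose, time or treatment and do not spell out the group names. The protocol describes centrifugation and filtration of culture supernatants for both samples, and does not say if cellular or vesicular RNA was sequenced. With 1 library a group no difference has a replicate check, and every statement below compares these libraries and not the conditions.

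Interferons are secreted proteins that warn neighbouring cells of infection or of misplaced nucleic acid. Type I interferons bind the receptor chains IFNAR1 and IFNAR2, whose kinases JAK1 and TYK2 phosphorylate STAT2. With IRF9 it forms part of the complex ISGF3, which binds the interferon-stimulated response element (ISRE) in the promoters of antiviral genes. Interferon gamma uses the receptor chains IFNGR1 and IFNGR2 and acts on promoters through the gamma-activated site (GAS). Upstream, RIG-I and MDA5 detect double-stranded RNA and signal through MAVS, while cGAS detects cytosolic DNA and signals through STING, and both routes activate IRF3, IRF7 and NF-kappaB. Fibroblasts are known to carry both routes.

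To show sequences through which interferon signalling can act on such genes, the promoters were taken from RefSeq on GRCm38.p6, which held 42 of the 49 genes. Windows ran from 250 bases before to 50 after each start. The ISRE was searched as GAAA, any 2 bases and GAAA, the GAS as TTCNNNGAA, and the NF-kappaB site as GGG, any 5 bases and CC, each on both strands. The ISRE letters were present for 16 of the 42 genes (38.1%), against 3.99% of all 27025 genes and 3.44% of all 32851 promoters of the same length. The GAS letters were present for 14 of the 42 genes (33.3%), against 9.55% of all genes and 8.3% of all promoters, and the NF-kappaB letters for 28 of them (66.7%), against 53.5% of all genes and 50.8% of all promoters. The members were chosen by name as interferon-stimulated, interferon signalling or nucleic acid sensing genes, so these shares describe the choice. A match is not shown to be a bound site. A gene with several annotated starts was counted once if any of its windows held the letters. The 250 bases before the start are shown for 6 members, with the fixed letters of the motif in capitals, 5′ to 3′ on the strand of the gene.
Cxcl10 promoter, chr5:92348890-92349139, minus strand: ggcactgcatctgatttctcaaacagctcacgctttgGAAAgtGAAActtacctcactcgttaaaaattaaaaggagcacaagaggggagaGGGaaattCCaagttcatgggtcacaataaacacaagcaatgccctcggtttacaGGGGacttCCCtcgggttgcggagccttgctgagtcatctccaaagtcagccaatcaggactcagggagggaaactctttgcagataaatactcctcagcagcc
Isg15 promoter, chr4:156200819-156201068, minus strand: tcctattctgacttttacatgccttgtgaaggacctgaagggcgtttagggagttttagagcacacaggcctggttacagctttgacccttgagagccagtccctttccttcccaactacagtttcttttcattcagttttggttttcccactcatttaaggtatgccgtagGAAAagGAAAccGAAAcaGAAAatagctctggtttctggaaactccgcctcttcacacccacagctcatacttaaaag
Ifit1 promoter, chr19:34640639-34640888, plus strand: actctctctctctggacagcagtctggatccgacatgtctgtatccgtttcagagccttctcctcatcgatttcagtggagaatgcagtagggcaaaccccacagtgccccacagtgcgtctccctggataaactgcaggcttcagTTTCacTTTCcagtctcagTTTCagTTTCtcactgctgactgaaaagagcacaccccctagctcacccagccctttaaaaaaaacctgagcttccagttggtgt
Bst2 promoter, chr8:71537473-71537722, minus strand: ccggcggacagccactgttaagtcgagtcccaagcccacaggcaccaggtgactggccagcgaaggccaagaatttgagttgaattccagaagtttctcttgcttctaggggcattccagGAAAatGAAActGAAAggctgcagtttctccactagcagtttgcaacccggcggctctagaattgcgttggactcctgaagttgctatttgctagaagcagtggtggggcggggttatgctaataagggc
Stat2 promoter, chr10:128270248-128270497, plus strand: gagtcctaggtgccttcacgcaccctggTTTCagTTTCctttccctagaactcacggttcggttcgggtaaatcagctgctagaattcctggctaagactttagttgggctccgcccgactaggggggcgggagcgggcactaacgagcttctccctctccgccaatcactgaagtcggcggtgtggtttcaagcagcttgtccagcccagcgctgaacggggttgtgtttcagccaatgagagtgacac
Irf1 promoter, chr11:53769764-53770013, plus strand: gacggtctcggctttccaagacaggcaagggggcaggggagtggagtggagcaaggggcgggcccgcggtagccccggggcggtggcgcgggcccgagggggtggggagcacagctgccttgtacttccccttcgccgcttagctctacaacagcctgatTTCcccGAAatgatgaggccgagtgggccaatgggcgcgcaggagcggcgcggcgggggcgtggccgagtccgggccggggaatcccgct

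In the promoter of Cxcl10, the member with the most reads, the capitals mark 1 ISRE, from position -213 to -204 with -1 as the last base before the start. They also mark NF-kappaB matches at -159 to -150, at -104 to -95 and, on both strands, at -103 to -94. Isg15 has a run of 3 ISRE matches that overlap in steps of 6 bases, between -78 and -57. Ifit1 has a pair of separate matches on the other strand, at -104 to -95 and -85 to -76, so that they read TTTC, 2 bases and TTTC, and Bst2 has a pair of overlapping ones between -130 and -115. Stat2, whose product is itself part of ISGF3, has 1 match at -222 to -213. The capitals in Irf1 mark a GAS at -90 to -82, and its windows held no ISRE letters. Capitals were used only for the motifs named here for each gene. Matches left unmarked were NF-kappaB letters in Ifit1, Bst2, Stat2 and Irf1, and GAS letters in Bst2 at -136 to -128.

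The libraries held 35219511 counted reads for IR and 36084512 for NC. Markers of fibroblasts, 8 of 10 in the table, summed to 4273 CPM (reads scaled to a common library size) in IR against 5352 CPM in NC, with Vim giving 51.4% of these reads in IR against 34.0% in NC. Vim had 76565 reads in IR against 66290 in NC and the scarce Dcn 30 against 7, while the other 6 were lower in IR, among them Fn1 with 49419 reads in IR against 90065 in NC and Col1a2 with 18761 against 32428. Lum and Thy1 were not among the table's symbols. Macrophage and other myeloid markers, 7 of 10, summed to 124 CPM in IR against 130 CPM in NC, mostly from Cd68 and Cd14. These went opposite ways, with 2903 reads of Cd68 in IR against 2188 in NC and 1257 of Cd14 against 2287. Lyz2 had 164 reads in IR against 261 in NC. The pan-leukocyte gene Ptprc had 4 reads in IR against 0 in NC and Csf1r had 1 against 4. Lymphocyte markers, 1 of 8, summed to 0.459 CPM in IR against 0.275 CPM in NC, and dendritic cell markers, 3 of 6, to 8.51 CPM in IR against 9.06 CPM in NC, mostly from Zbtb46. Mesothelial markers, 2 of 4, summed to 97.8 CPM in IR against 197 CPM in NC, almost all from Msln. Smooth muscle and pericyte markers, 6 of 6, summed to 27.1 CPM in IR against 22.3 CPM in NC. Among them Cspg4 had 389 reads in IR against 244 in NC, Acta2 67 against 38, Cnn1 168 against 173 and Des 316 against 359. Endothelial markers, 5 of 6, summed to 4.7 CPM in IR against 4.36 CPM in NC. Of these Kdr had 47 reads in IR against 19 in NC and Vwf 70 against 99. Epithelial markers, 4 of 8, summed to 1.03 CPM in IR against 1.02 CPM in NC, with Krt8 at 24 reads against 9 and Foxj1 at 3 against 19. The part of these markers in the values below was not tested. In such bulk RNA, fewer cells of a type and less RNA per cell cannot be told apart.

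As a set the members were abundant in both libraries, while interferon transcripts were close to undetectable in both. The 49 members took 0.823% of the reads in IR and 0.819% in NC. Divided by the kilobases of coding-transcript exon, which turns CPM into RPKM, their median level was 25.8 in IR and 23.9 in NC, against a median over all genes of 2.39 in IR and 2.45 in NC. Of the 49 members, 10 were among the most abundant 5% of genes per length in IR and 10 in NC, and 4 were among the most abundant 1% in each library. Ifnb1, which encodes interferon beta, had 1 read in IR and 1 in NC, and Ifna4 had 0 reads in IR against 5 in NC. Both lie near or below the floor of 3 counts a library, which is 0.086 CPM in IR and 0.0824 CPM in NC. Ifna1, Ifna2, Ifne, Ifng, Ifnk, Ifnl2 and Ifnl3 were not among the table's symbols.

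**Figure D1:**
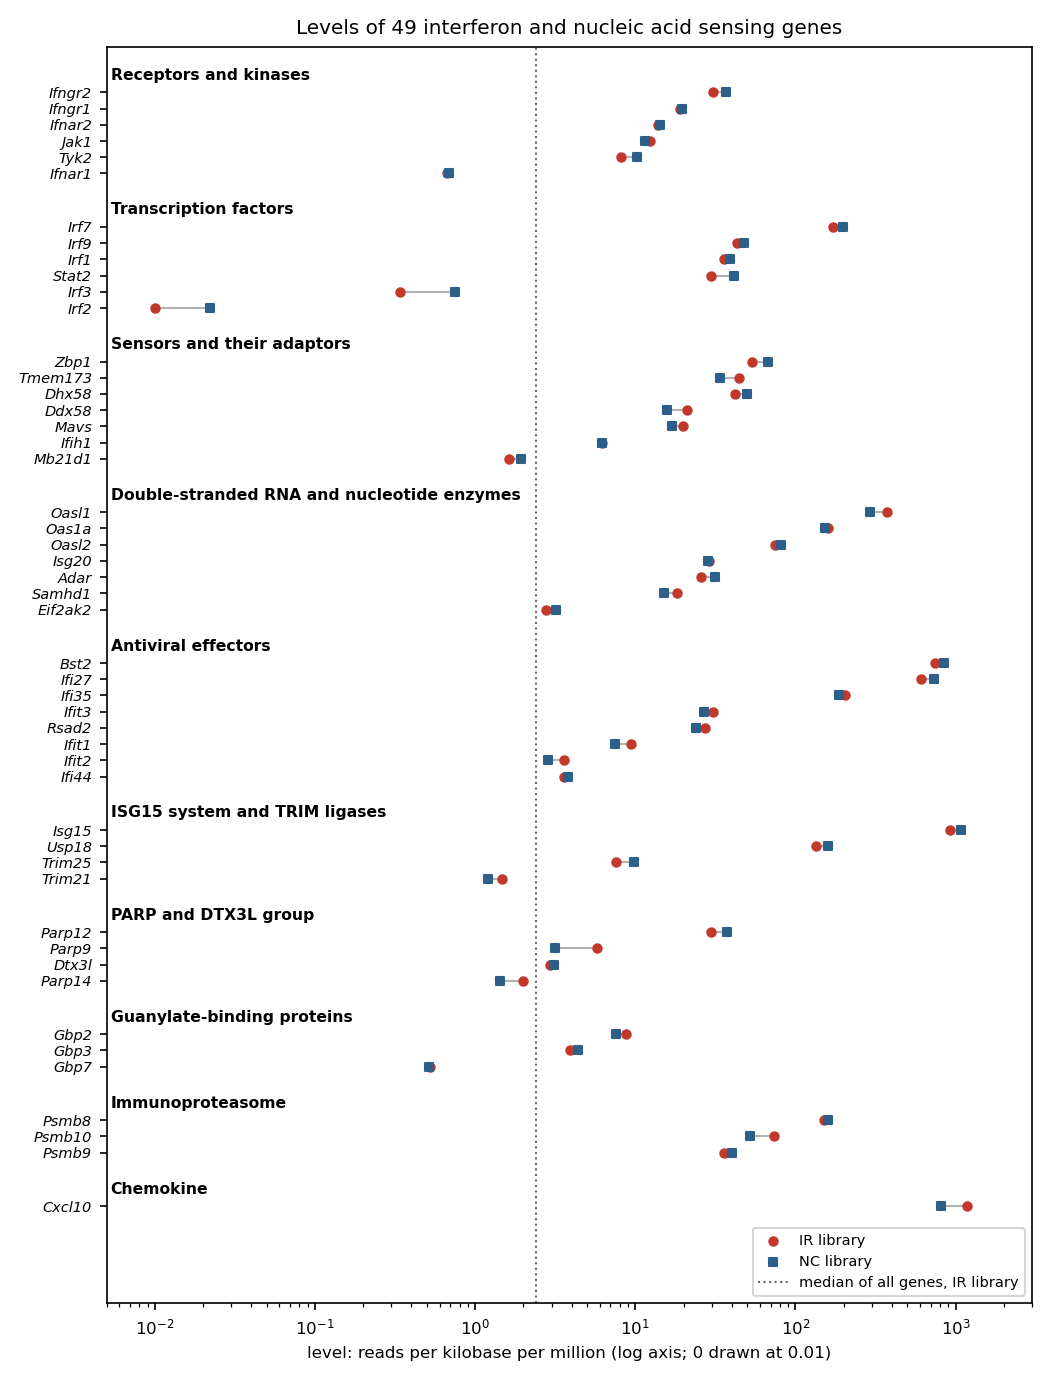
Level of each of the 49 genes in the IR library (circles) and the NC library (squares), in RPKM on a log axis, by role; the 0 of Irf2 in IR is drawn at 0.01. Most genes lie to the right of the median of all genes (dotted, 2.39 in the IR library), and the points of each gene lie close together except for Irf3, Irf2 and Parp9.

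Of the 49 members, 48 had at least 50 reads over both libraries and were compared as the log2 ratio of IR over NC. Each ratio carries a 95% interval, given by its lower and upper limits, that covers counting error only. At least 2-fold differences, with an interval that excluded a ratio of 1, were found for 0 members in the higher and 1 in the lower direction, against 3.42% of all 10921 compared genes (1.6% higher and 1.82% lower). At a limit of 1.5-fold, 1 member was higher and 1 lower in IR, against 13.0% of all genes (6.09% higher and 6.9% lower). By contrast the interval excluded 1 for 37 of the 48 members (77.1%), of which 17 were higher in IR (all genes 31.2%) and 20 lower (all genes 32.4%), against 63.6% of all genes in either direction. At least 1000 reads over both libraries were counted for 38 members and for 6463 of all genes. Among these the interval excluded 1 for 86.8% of the members and 74.3% of the genes. At the 1.5-fold limit 1 of the 38 members was higher and 0 lower, against 191 higher and 184 lower of the 6463 genes. At the 2-fold limit 0 of the 38 members were called, against 21 higher and 19 lower of the 6463 genes. The part of read depth in these shares and counts was not tested.

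The ratios were small and went in both directions. Their median was -0.062, against -0.0069 over all compared genes. Of the members 21 were above 0 and 27 below, and of all compared genes 5366 were above 0 and 5555 below. The median absolute log2 ratio was 0.23 for the members and 0.23 for all genes. Within 1.5-fold lay 46 of 48 members (95.8%), against 86.6% of all genes. Among those with at least 1000 reads it was 97.4% of the members and 94.2% of the genes. Summed over the 49 members the level was 8304 CPM in IR, with Poisson limits of 8274 and 8334, against 8114 CPM in NC, with limits of 8085 and 8143. This order rests on Cxcl10: without it the summed level was 6518 CPM in IR against 6879 CPM in NC.

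**Figure D2:**
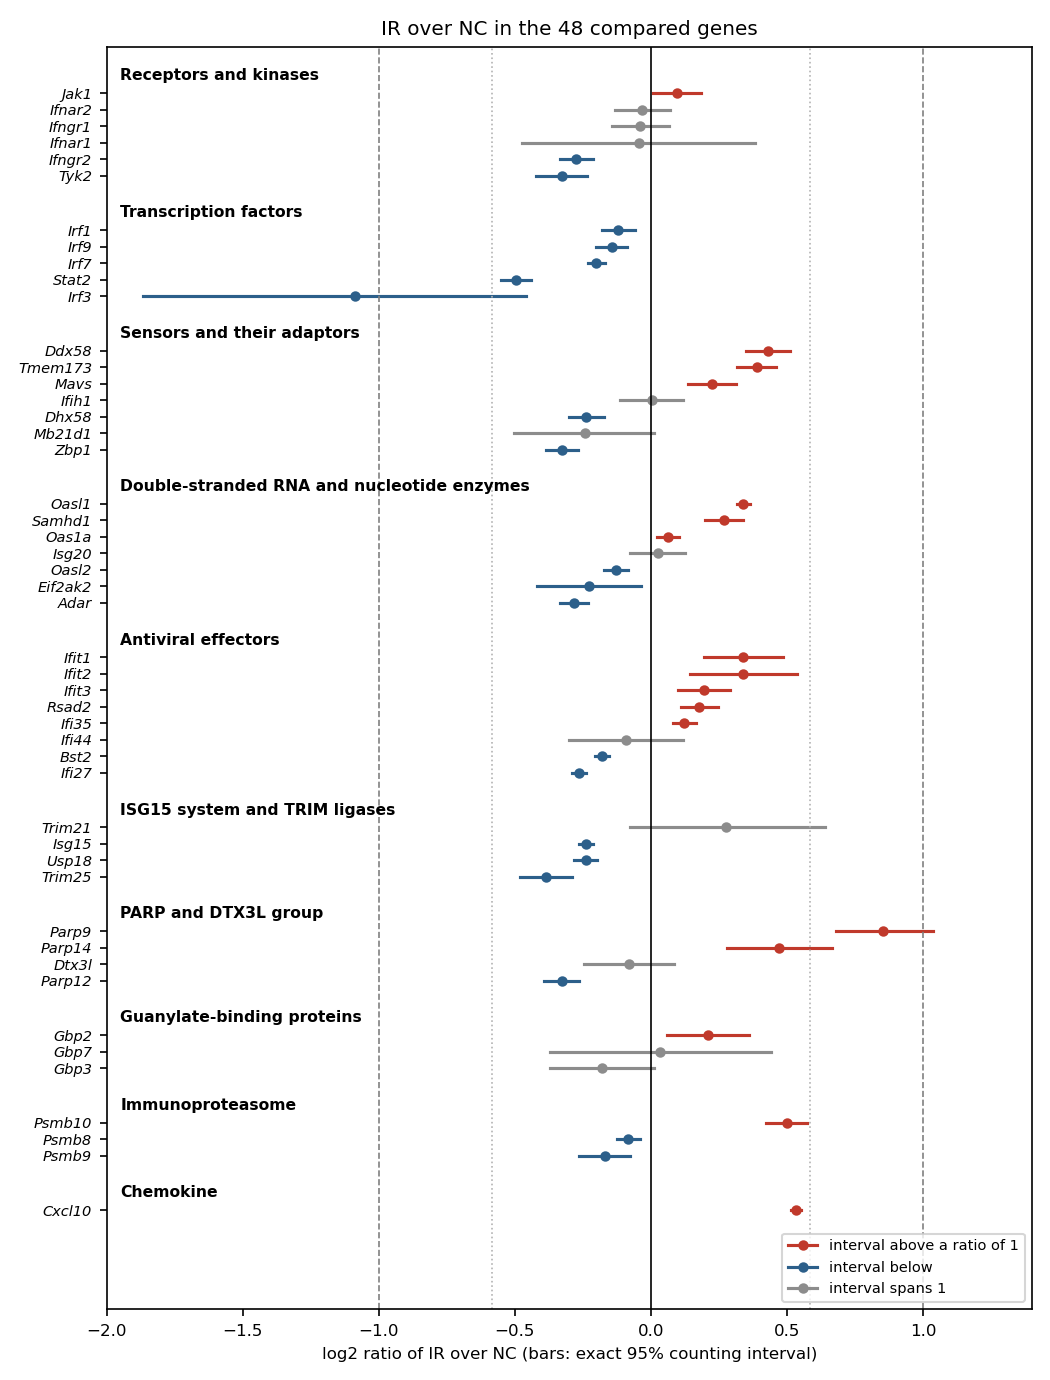
IR over NC, as a log2 ratio, for each of the 48 compared genes, by role, with bars for the exact 95% counting interval. Dashed lines mark 2-fold and dotted lines 1.5-fold; only Irf3 lies beyond 2-fold and only Parp9 and Irf3 beyond 1.5-fold.

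**Figure D3:**
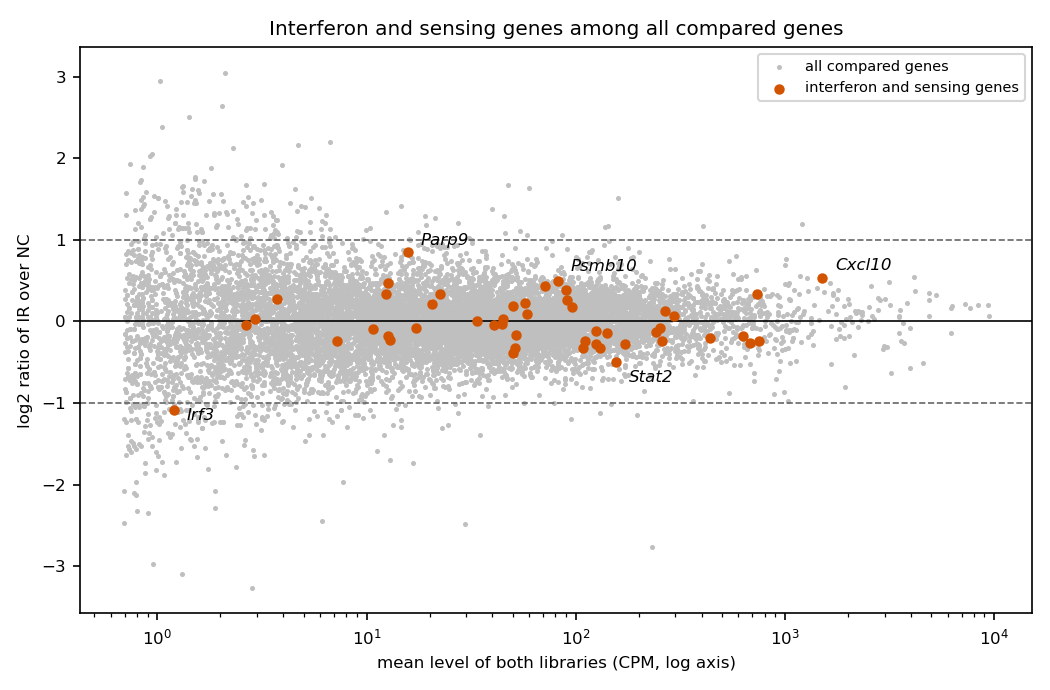
IR over NC, as a log2 ratio, against the mean level of both libraries (CPM, log axis) for all 10921 compared genes (grey) and the 48 members (orange). The members lie within the cloud of all genes at every level, with a median of -0.062.

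The receptors and their kinases had reads in both libraries, and the ratios of all 6 lay within 1.5-fold, as did 86.6% of all compared genes. Ifnar1 had 91 reads in IR against 98 in NC, and Ifnar2 had 1536 reads in IR against 1640 in NC. For both chains of the type I receptor the interval of the log2 ratio spanned 0, at -0.044 (limits -0.47 and 0.38) for Ifnar1 and at -0.032 (limits -0.13 and 0.069) for Ifnar2. Per length Ifnar2 stood 20.8 times above Ifnar1 in IR and 20.6 times above it in NC. This comparison rests on a low level of Ifnar1, at 0.667 RPKM in IR and 0.688 RPKM in NC. The medians over all genes were 2.39 in IR and 2.45 in NC. The chains of the interferon gamma receptor behaved less alike. Ifngr1 had 1402 reads in IR against 1504 in NC (log2 ratio -0.039, limits -0.14 and 0.067), and Ifngr2 had 3966 reads in IR against 5010 in NC (log2 ratio -0.27, limits -0.34 and -0.21).

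Among the receptor-bound kinases, Tyk2 was lower in IR, with 1577 reads in IR against 2068 in NC (log2 ratio -0.33, limits -0.42 and -0.23). Jak1, which serves both receptors, had 2110 reads in IR against 2061 in NC (log2 ratio 0.096, limits 0.0081 and 0.18). Its interval spanned 0 when libraries were scaled by total counts. Of the 6 genes of this role, 1 was higher and 2 were lower in IR by their intervals (all genes 31.2% higher and 32.4% lower).

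All 5 compared transcription factors among the members were lower in the IR library, each with an interval below a ratio of 1, as 32.4% of all compared genes had. Irf5, no member and given below, was higher in IR. Stat2, the subunit that carries the activation domain of ISGF3, had 4528 reads in IR against 6664 in NC (log2 ratio -0.49, limits -0.55 and -0.44). Its partner Irf9, the DNA-binding subunit, had 4676 reads in IR against 5393 in NC (log2 ratio -0.14, limits -0.20 and -0.087). The intervals of Stat2 and Irf9 did not overlap, and per length Stat2 stood at 0.683 of Irf9 in IR and at 0.872 of it in NC.

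Irf7, the interferon-induced factor that amplifies the response, was the most abundant of these factors per length, at 171 RPKM in IR and 197 RPKM in NC. It had 14311 reads in IR against 17178 in NC (log2 ratio -0.20, limits -0.23 and -0.17). Irf1, whose promoter holds the GAS shown above, had 4160 reads in IR against 4722 in NC (log2 ratio -0.12, limits -0.18 and -0.06). Both were lower in IR by less than 1.2-fold.

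Irf3, the factor that sensors activate by phosphorylation, was the only member at least 2-fold different. It had 26 reads in IR against 60 in NC, a log2 ratio of -1.09 with limits of -1.87 and -0.46. Irf2, a factor that competes with IRF1 for the same sites, had 0 reads in IR against 2 in NC, both within the floor of 3 counts, so no ratio is given. In the annotation 2.56% of the exons of Irf3 and 0% of those of Irf2 lie over another gene. The annotation release and counting settings behind these low counts are not given in the sources used here, so the values of both genes, and with them the only 2-fold difference, are uncertain.

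The sensors of RNA did not move together. Ddx58 (RIG-I, which detects RNA with a 5′ triphosphate) had 2857 reads in IR against 2213 in NC, the highest ratio of this role (log2 ratio 0.43, limits 0.35 and 0.51). Ifih1 (MDA5, which detects long double-stranded RNA) had 1178 reads in IR against 1228 in NC (log2 ratio 0.0025, limits -0.11 and 0.12). Dhx58 (LGP2, a helper that has the helicase but lacks the signalling domains) had 3535 reads in IR against 4353 in NC (log2 ratio -0.24, limits -0.30 and -0.17). Per length LGP2 stood 1.99 times above RIG-I in IR and 3.16 times above it in NC. Their shared adaptor Mavs had 2141 reads in IR against 1914 in NC (log2 ratio 0.22, limits 0.13 and 0.31).

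On the DNA side, Tmem173 (STING) had 3553 reads in IR against 2833 in NC (log2 ratio 0.39, limits 0.32 and 0.46). The sensor that feeds it, Mb21d1 (cGAS), had 231 reads in IR against 286 in NC, with an interval that spanned 0 (log2 ratio -0.24, limits -0.50 and 0.0095). The level of Tmem173 per length was 27.3 times that of Mb21d1 in IR and 17.6 times in NC. Zbp1, a sensor of Z-form nucleic acid linked to necroptosis, had 4058 reads in IR against 5317 in NC, the lowest ratio of this role (log2 ratio -0.33, limits -0.39 and -0.27). Of the 7 sensors and adaptors, 3 were higher and 2 lower in IR by their intervals (all genes 31.2% higher and 32.4% lower).

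The enzymes that act on double-stranded RNA and nucleotides went in both directions, 3 higher and 3 lower of 7 by their intervals. Of all compared genes, 31.2% were higher and 32.4% lower. Oasl1, an oligoadenylate synthetase-like protein known in mouse to restrain the translation of Irf7, had 28547 reads in IR against 23560 in NC (log2 ratio 0.34, limits 0.31 and 0.36). Oasl2 had 8097 reads in IR against 9238 in NC (log2 ratio -0.13, limits -0.17 and -0.085). Oas1a, which makes the activator of RNase L, had 10506 reads in IR against 10508 in NC (log2 ratio 0.062, limits 0.023 and 0.10). Of its 50-base words, 57.6% also occur elsewhere, Oas1g above all, so its reads may be split among copies, and its interval spanned 0 with total counts and with centring on transcript length.

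Adar, the RNA-editing enzyme that keeps a cell's own double-stranded RNA from being sensed, had 5391 reads in IR against 6843 in NC (log2 ratio -0.28, limits -0.33 and -0.23), and 16.8% of its exon bases also lie in another gene. Eif2ak2 (PKR, a kinase that halts translation on double-stranded RNA) had 414 reads in IR against 506 in NC (log2 ratio -0.23, limits -0.42 and -0.037), and its interval spanned 0 with centring on transcript length. Samhd1, which degrades deoxynucleotides, had 3480 reads in IR against 3018 in NC (log2 ratio 0.27, limits 0.20 and 0.34). The exonuclease gene Isg20 had 1581 reads in IR against 1622 in NC, with an interval that spanned 0 (log2 ratio 0.025, limits -0.075 and 0.13).

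Among the antiviral effectors, the 3 Ifit genes were all higher in IR. These genes, neighbours on chromosome 19, encode proteins that bind foreign RNA ends or help signalling. Ifit1 had 876 reads in IR against 723 in NC (log2 ratio 0.34, limits 0.20 and 0.48), Ifit2 had 481 reads in IR against 397 in NC (log2 ratio 0.34, limits 0.14 and 0.53) and Ifit3 had 1873 reads in IR against 1709 in NC (log2 ratio 0.19, limits 0.099 and 0.29). Of the 50-base words of Ifit3, 51.2% also occur elsewhere, mostly in its near-copy Ifit3b, which makes its value uncertain. Rsad2 (viperin) had 3573 reads in IR against 3299 in NC (log2 ratio 0.18, limits 0.11 and 0.25), and Ifi35 had 9680 reads in IR against 9282 in NC (log2 ratio 0.12, limits 0.082 and 0.16), and 16.8% of its exon bases also lie in another gene.

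The most abundant effectors went the other way. Bst2 (tetherin, which holds budding virus at the cell surface) had 20652 reads in IR against 24417 in NC (log2 ratio -0.18, limits -0.21 and -0.15). Ifi27 had 21722 reads in IR against 27215 in NC (log2 ratio -0.26, limits -0.29 and -0.24). Ifi44 had 364 reads in IR against 405 in NC, with an interval that spanned 0 (log2 ratio -0.091, limits -0.30 and 0.12). Of the 8 effectors in the table, 5 were higher and 2 lower in IR by their intervals, so both directions occurred within the role. Of all compared genes, 31.2% were higher and 32.4% lower.

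Isg15 and its protease Usp18 had the same ratio. Isg15, a ubiquitin-like protein that is attached to other proteins, had 24190 reads in IR against 29817 in NC (log2 ratio -0.24, limits -0.26 and -0.21). Usp18, which removes ISG15 and dampens signalling at the type I receptor, had 8301 reads in IR against 10234 in NC (log2 ratio -0.24, limits -0.28 and -0.20). Isg15 stood 6.83 times above Usp18 per length in both libraries.

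Uba7, which encodes the enzyme that activates ISG15 and is no member, was also lower in IR, with 1115 reads in IR against 1670 in NC (log2 ratio -0.52, limits -0.63 and -0.41). The conjugating enzyme gene Ube2l6, likewise no member and picked with its value in view, had 5432 reads in IR against 5135 in NC (log2 ratio 0.14, limits 0.088 and 0.20). Trim25, a ligase that activates RIG-I, had 1514 reads in IR against 2065 in NC (log2 ratio -0.38, limits -0.48 and -0.29). Trim21, an intracellular antibody receptor, had 143 reads in IR against 123 in NC, with an interval that spanned 0 (log2 ratio 0.28, limits -0.078 and 0.64).

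The highest ratio of all members belonged to Parp9, while the gene of its partner protein differed little. Parp9, a macrodomain protein that works as a complex with the ubiquitin ligase DTX3L, had 711 reads in IR against 410 in NC (log2 ratio 0.85, limits 0.68 and 1.04), or 20.4 CPM in IR against 11.3 CPM in NC. Dtx3l had 584 reads in IR against 645 in NC (log2 ratio -0.081, limits -0.24 and 0.083). The genes lie head to head on chromosome 16 of GRCm38, Parp9 on the plus strand at 35938470 to 35972605 and Dtx3l on the minus strand at 35926511 to 35939151. Their exons overlap over 9.4% of Parp9 and 8.0% of Dtx3l, and whether reads were assigned by strand is not stated. Per length Parp9 stood at 1.96 times Dtx3l in IR and at 1.03 times in NC, a comparison picked with the values in view.

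Parp14, an ADP-ribosyltransferase from the same stretch of chromosome 16, was also higher in IR, with 515 reads in IR against 388 in NC (log2 ratio 0.47, limits 0.28 and 0.66). Parp12, a zinc-finger relative, had 3336 reads in IR against 4375 in NC (log2 ratio -0.33, limits -0.39 and -0.26). Guanylate-binding proteins, GTPases that attack vacuoles of intracellular microbes, differed little. Gbp2 had 767 reads in IR against 693 in NC (log2 ratio 0.21, limits 0.059 and 0.36). For Gbp3 (415 reads in IR against 491 in NC) and Gbp7 (103 reads in IR against 105 in NC) the intervals spanned 0, with log2 ratios of -0.18 and 0.034. Of the exon bases of Gbp7, 11.3% also lie in another gene.

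The immunoproteasome genes, whose products replace the catalytic subunits of the proteasome when antigens are processed, split 1 higher against 2 lower by their intervals. Of all compared genes, 31.2% were higher and 32.4% lower. Psmb10 had 3353 reads in IR against 2478 in NC (log2 ratio 0.50, limits 0.42 and 0.57). Psmb8 had 8601 reads in IR against 9513 in NC (log2 ratio -0.083, limits -0.13 and -0.041), and 14.7% of its exon bases also lie in another gene, and Psmb9 had 1693 reads in IR against 1990 in NC (log2 ratio -0.17, limits -0.27 and -0.077). Per length Psmb10 stood at 2.04 times Psmb9 in IR and at 1.28 times in NC.

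Cxcl10, a chemokine that attracts activated T cells and is induced by interferon and by NF-kappaB, was the most abundant member in reads in both libraries. It had 62303 reads in IR against 44973 in NC, or 1785.9 CPM in IR against 1234.5 CPM in NC (log2 ratio 0.53, limits 0.52 and 0.55). Per length it ranked 70 among all genes in IR and 96 in NC. Another NF-kappaB and interferon responsive chemokine, Ccl5, is no member and was picked with its value in view. It was more abundant still, with 115760 reads in IR against 99575 in NC (log2 ratio 0.28, limits 0.27 and 0.29), ranking 6 per length in IR and 7 in NC. Cxcl9, which interferon gamma induces and which was picked likewise, had 1 read in IR and 0 in NC.

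The ratios were set against the promoter letters shown above. With the ISRE letters, 10 of 15 compared members had a ratio above 0, and without them 8 of 26 did. Of all 10921 compared genes, 5366 had a ratio above 0. The medians were 0.06 with the letters (range -0.49 to 0.53) and -0.09 without (range -1.09 to 0.50). Both ranges overlap over most of their length, and over all compared genes the medians were 0.039 with the letters (307 genes) and -0.0048 without (8215 genes). For the GAS letters the medians were -0.03 with (6 of 13 members above 0) and -0.09 without (12 of 28 members above 0). For the NF-kappaB letters they were -0.14 with (10 of 27 members above 0) and 0.02 without (8 of 14 members above 0).

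**Figure D4:**
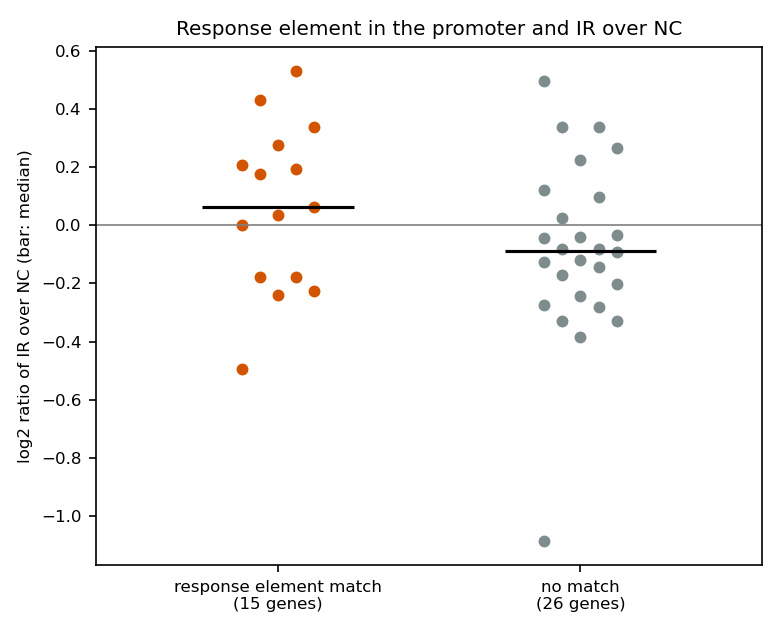
IR over NC, as a log2 ratio, for the 41 compared members with a RefSeq promoter, by whether the window holds the response element letters (15 genes) or not (26 genes). Bars are medians, 0.06 and -0.09, and the points of both sets overlap.

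Other genes of the pathway were taken from 2 further lists. Of 52 further signalling and sensing genes, 42 were in the table and 34 were compared. Their median ratio was -0.025, with 10 higher and 10 lower in IR by their intervals, and at the 2-fold limit 1 was higher and 1 lower. The intervals thus excluded 1 for 58.8% of these genes, against 63.6% of all genes, of which 3.42% passed the 2-fold limit. Irf5, a factor that acts downstream of Toll-like receptors, had 289 reads in IR against 137 in NC (log2 ratio 1.13, limits 0.84 and 1.44), and 14.1% of its exon bases also lie in another gene. Nlrc5, the transactivator of MHC class I genes, had 872 reads in IR against 1872 in NC (log2 ratio -1.04, limits -1.16 and -0.92).

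In the same list, the kinase gene Riok3 (log2 ratio 0.58) and the RNase H2 subunit gene Rnaseh2c (log2 ratio 0.43, with 24.8% of its exon bases in another gene) followed Irf5 at the high end. At the low end were the phosphatase gene Ptpn11 (log2 ratio -0.70), with 2515 reads in IR against 4272 in NC, and the signalling inhibitor Socs3 (log2 ratio -0.52), beside Uba7. The feedback inhibitor Socs1, picked with its value in view, had 444 reads in IR against 388 in NC (log2 ratio 0.26, limits 0.057 and 0.46).

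Of 45 further interferon-stimulated genes, 41 were in the table and 36 were compared. They had a median ratio of 0.0063, with 12 higher and 13 lower in IR by their intervals, or 69.4% against 63.6% of all genes. The only one at least 2-fold different was Cmpk2, a mitochondrial nucleotide kinase gene, with 81 reads in IR against 201 in NC (log2 ratio -1.23, limits -1.64 and -0.87). It lies beside Rsad2 on chromosome 12, on the opposite strand, at 26469204 to 26479837 with Rsad2 at 26442746 to 26456452. Rsad2, as given above, was slightly higher in IR, so the neighbours differed in direction, and per length Rsad2 stood 37.3 times above Cmpk2 in IR and 13.9 times above it in NC. Lgals9 (galectin-9) had 8084 reads in IR against 4924 in NC (log2 ratio 0.78, limits 0.73 and 0.83), ahead of Cnp (log2 ratio 0.70) and the lysosomal reductase gene Ifi30 (log2 ratio 0.61). At the low end, Znfx1, a helicase-like RNA sensor, had 3596 reads in IR against 6078 in NC (log2 ratio -0.69, limits -0.75 and -0.64), followed by Nmi (log2 ratio -0.60).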

How the data were processed

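RNA depleted of ribosomal RNA was sequenced from 2 libraries. The deposited table gives raw read counts per gene, per the file headers. The submitters' processing notes name cutadapt 1.9.3, HISAT2, HTSeq 0.9.1, edgeR and the build mm10. The annotation release and the use of strand are not given in the sources used here. A further 2 value columns, normalized by the authors, were not used.

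Libraries were scaled by TMM (edgeR 4.0.16, R 4.3.3) with factors of 0.991 for IR and 1.01 for NC. Log2 ratios used a prior count of 2 and genes with at least 50 reads over both libraries. Intervals are exact (Clopper-Pearson for ratios, Poisson for levels) at 95%, and PCR copies are not independent molecules. No p-value was computed. A 2-fold or 1.5-fold call also needed an interval off a ratio of 1. Lengths, positions and exon overlap were taken from the GENCODE vM21 annotation of GRCm38, matching 14584 genes; an overlap of at least 10% is stated beside a named gene. The procedure was tested on simulated data with counting noise only, which hold no variation between libraries of a group.

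The members and lists were chosen with earlier results of these data known. Every member may be named. From the further lists the 3 highest and 3 lowest ratios and the interferon genes are named. A gene counted in these lists is not reported here. Alternatives were total counts, upper quartile and DESeq2 1.42.0 size factors, prior counts of 0.5 or 5, a minimum of 200 reads or none, thinning, centring on transcript length, the mean, and leaving out overlapping genes. Leaving out genes sharing at least 20% of their 50-base words, Cxcl10, or Cxcl10 and Oasl1 was added after seeing the data.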

Additional observations from a re-analysis of the deposited data

How the results depend on the processing

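No paired analysis was possible because the groups share only 1 number, with 1 library each. The number of members at least 2-fold different was 1, and 0 with a filter of 200 reads, which removes Irf3; the number at least 1.5-fold different was 2, and 1 with that filter. In the other alternatives run both numbers stayed as they were. The log2 ratio of the summed members was 0.033, -0.078 without Cxcl10 and -0.13 without Cxcl10 and Oasl1. The median ratio of the members lay between -0.089 (total counts) and -0.037 (upper quartile), and their mean was -0.012. None of the 37 members with an interval off a ratio of 1 changed sign in any alternative that compared it. Intervals came to span 1 for Jak1 and Oas1a with total counts, which brought in Mb21d1 and Gbp3 (15 higher, 22 lower), and for Oas1a and Eif2ak2 with centring on transcript length. Over all genes the 374 calls at 2-fold became 1190 without a filter and 144 with 200 reads, and the 1419 calls at 1.5-fold became 2259 and 883. No ratio is given for Irf2 or for Ifnb1 and Ifna4, whose reads lie near or below the floor of 3 counts.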
